A study of Mus musculus with 14 samples.

Results

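The chemokine ligands are the secreted or membrane-held proteins that set up chemical gradients for migrating leukocytes. The members were taken from the platform annotation as the probe sets that carry exactly 1 gene symbol, where that symbol is Ccl or Cxcl followed by a number, or Cx3cl1 or Xcl1. Cxcl15 was left out of the members and is described with the related genes. The rule uses names only and no measured value. It gave 49 of 45101 probe sets, which stand for 32 of 18193 genes with a single symbol. Of the 32 genes, 23 had enough signal to be tested and 9 fell under the limit for low signal, a mean of 53.4 signal units over the 14 arrays. A gene with several probe sets was represented by the one with the highest mean.

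The study measured RNA in whole mouse lung on 1-colour Affymetrix arrays, with deposited values given as linear signal per probe set. There were 5 samples from CD151KO mice, 5 from CD9KO mice and 4 from wild type mice, all of strain background C57BL/6 and 20 weeks of age. CD151 and CD9 are tetraspanins, membrane proteins that gather integrins and other partners into clusters, and the series title places the study in the field of pulmonary fibrosis. No treatment is named for any group, and which cells lost the gene, the sex of the mice and any pooling of animals are not given in the sources used here.

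Chemokines fall into the CC, CXC, CX3C and XC families by the spacing of their first cysteines, and most act through G protein-coupled receptors on leukocytes. Inflammatory ligands are switched on by NF-kB and by interferons and bring in neutrophils, monocytes, eosinophils or T cells. Homeostatic ligands are made at a steady level and place cells in tissues. In the lung, alveolar macrophages, epithelium, fibroblasts and endothelium each make a set of their own. Atypical receptors bind ligands without the usual signal and clear them, and surface proteases cut the membrane-held ligands free.

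The targeted genes matched the labels on every array. Cd151 had signals of 1027 to 1072 in CD151KO lungs, against 4991 to 5832 in wild type lungs. Cd9 had signals of 614 to 749 in CD9KO lungs, against 7998 to 8163 in wild type lungs. Arrays CD151KO 1 and wild type 1 stood apart from the others on the first principal component. The summed signal of the 9 neutrophil markers measured was 11160.5 and 9829 on arrays CD151KO 1 and 2, and 3783 to 11160.5 in CD151KO, 1996 to 3015 in CD9KO and 2591 to 5847 in wild type arrays over each whole group. Epithelial, endothelial and fibroblast markers were present on all arrays. These are bulk tissue samples, so fewer cells of a type and less RNA per cell cannot be told apart in any value below.

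Across the 23 ligands tested, no ligand passed an adjusted p of 0.05 when either knockout was set against wild type lungs, and 3 passed when CD151KO lungs were set against CD9KO lungs. The 3 were Cxcl16 and Cxcl12, which were higher in CD151KO lungs, and Ccl11, which was lower. Cxcl15, a ligand that the member rule leaves out, did pass for CD151KO against wild type (log2 0.27) and is described with the related genes. Tests were moderated linear models over all 12985 genes tested (limma, Benjamini-Hochberg adjustment), on log2 of the signal plus 16. For CD151KO against wild type, 0 of 23 ligands were called, against 0.778% of all genes tested. For CD9KO against wild type, 0 of 23 were called, against 5.51% of all genes. For CD151KO against CD9KO, 3 of 23 (13%) were called, against 10.1% of all genes, so the share of ligands called was near the background.

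At an unadjusted p under 0.05, limma gave 1 of 23 ligands (4.35%, against 11.1% of all genes) for CD151KO against wild type. It gave 6 of 23 (26.1%, against 25.4%) for CD9KO against wild type and 7 of 23 (30.4%, against 27.6%) for CD151KO against CD9KO. Groups whose arrays did not overlap at all were found for 0 ligands in the comparison of CD151KO with wild type, where 4.54% of all genes had that property. The count was 3 ligands (13%, against 11.8% of all genes) for CD9KO against wild type, namely Ccl11, Ccl12 and Cxcl16. It was 2 ligands (8.7%, against 10.6%) for CD151KO against CD9KO, namely Cxcl12 and Cxcl16. Both knockouts are compared with the same 4 wild type samples, and each knockout enters a pair of comparisons, so the comparisons are not independent.

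The sizes were small in all comparisons. The median absolute log2 difference of the 23 ligands was 0.05 for CD151KO against wild type (all genes 0.05), 0.15 for CD9KO against wild type (all genes 0.08) and 0.13 for CD151KO against CD9KO (all genes 0.07). The ligands also varied more between arrays of a group than the typical gene: the median standard error of their differences was 0.10 for CD151KO against CD9KO, against 0.06 over all genes. The signed median lay at -0.03, -0.08 and 0.05 in the same order of comparisons, against medians over all genes of 0.008, 0.004 and 0.002.

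**Figure D1:**
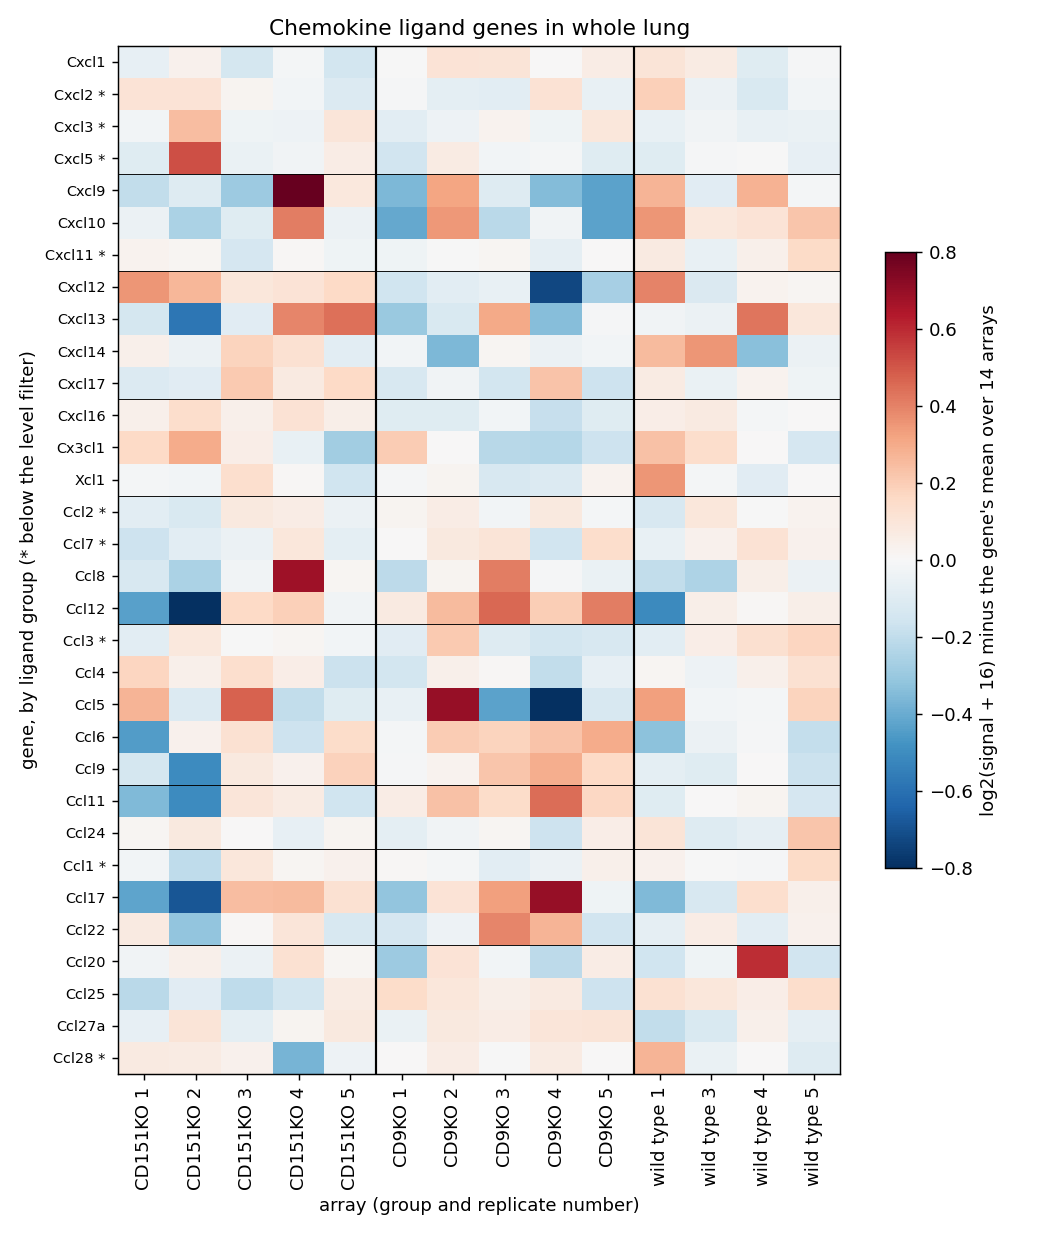
Each row is 1 of the 32 ligands, in groups by role and with an asterisk for the 9 below the limit for low signal, and each column 1 array, CD151KO, then CD9KO, then wild type. The colour is log2(signal + 16) minus the gene's mean over the 14 arrays, with the scale ending at -0.8 and 0.8. No tested ligand separates all CD151KO arrays from all wild type arrays, while Ccl11 and Ccl12 are higher and Cxcl16 lower on all 5 CD9KO arrays than on any wild type array.

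**Figure D2:**
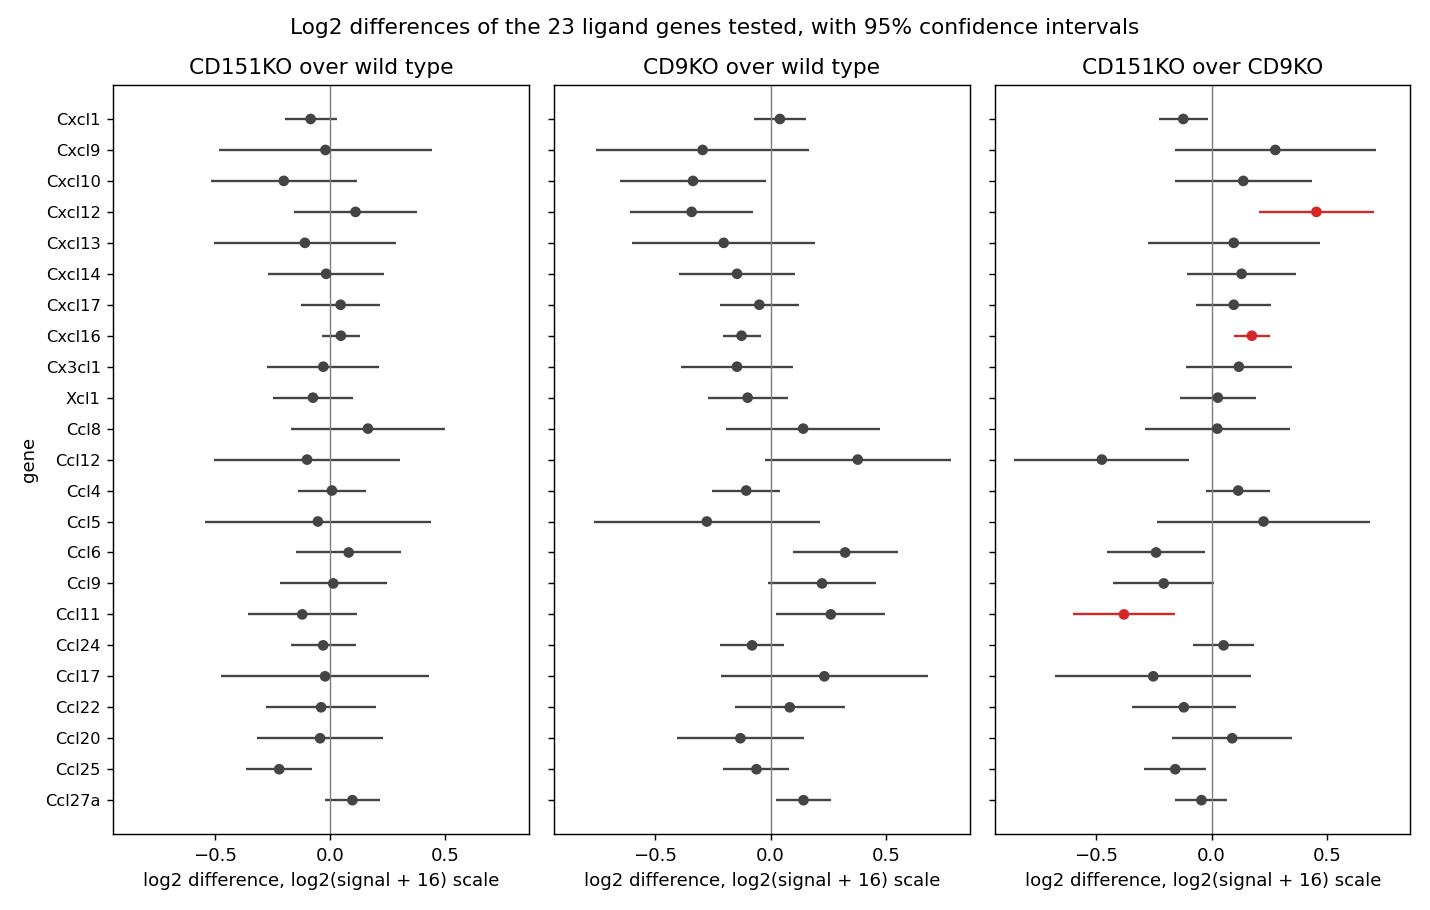
Log2 differences of the 23 tested ligands in the 3 comparisons, with 95% confidence intervals from the limma fit; the vertical line marks no difference. Points and intervals in red mark the 3 ligands with an adjusted p under 0.05, Cxcl16, Cxcl12 and Ccl11, all in CD151KO against CD9KO.

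Cxcl16 had the smallest adjusted p of the member ligands. It is made as a transmembrane protein by macrophages, dendritic cells and epithelium, binds the receptor Cxcr6 on T and NKT cells, and also takes up oxidised lipid. Its signals were 772, 827, 772, 812 and 773 in CD151KO lungs, 698, 701, 737, 658 and 701 in CD9KO lungs and 776, 787, 741 and 752 in wild type lungs. All 5 CD9KO arrays lay below every CD151KO and every wild type array, and the CD151KO and wild type ranges overlapped. Cxcl16 averaged 791 ± 26.3 in CD151KO lungs, against 699 ± 27.8 in CD9KO lungs (SD, n = 5 each), and was 1.13-fold higher in CD151KO lungs by limma (log2 0.17, SE 0.04, adjusted p = 0.00941). Folds are on the scale of signal plus 16, which understates the change of low genes. In wild type lungs it averaged 764 ± 21.2 (SD, n = 4), and CD9KO against wild type did not pass (log2 -0.13, SE 0.04, adjusted p = 0.0628). CD151KO against wild type was close to 0, with a 95% interval of -0.03 to 0.13 on the log2 scale. A further Cxcl16 probe set showed the same pattern without overlap, with a log2 of 0.23 and an adjusted p of 0.0163 by limma over all probe sets with 1 symbol. The call held in 27 of 28 alternative analyses and was lost without arrays CD151KO 1 and 2 (adjusted p = 0.0576), a setting picked once the values were known.

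Cx3cl1, or fractalkine, is the other transmembrane ligand, held on endothelium and epithelium and bound by Cx3cr1 on monocytes. Its signals were 308, 341, 284, 263 and 223 in CD151KO lungs, 317, 274, 232, 232 and 242 in CD9KO lungs and 325, 304, 275 and 249 in wild type lungs. The 3 groups overlapped widely, and no comparison passed (smallest adjusted p 0.435, for CD9KO against wild type). That gene has probe sets that differ in sign: for CD9KO against wild type, the chosen one had a log2 of -0.15, and another, averaging 122 ± 7.19 in CD9KO lungs and 118 ± 6.85 in wild type lungs, had a log2 of 0.04. Xcl1, or lymphotactin, is released by activated T and NK cells and draws cross-presenting dendritic cells through Xcr1. It had signals of 81.4, 80.9, 92.03, 83.1 and 72.03 in CD151KO lungs, 81.7, 84.2, 74.2, 75.3 and 84.5 in CD9KO lungs and 109.6, 81.4, 76.3 and 82.7 in wild type lungs. These ranges overlapped too, with adjusted p-values of 0.456 or more.

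Among the 4 homeostatic CXC ligands, 1 rose in CD151KO against CD9KO lungs and 3 did not pass. Cxcl12 is made by fibroblasts and endothelium and holds leukocytes and progenitors in place through Cxcr4, while Ackr3 removes it. Its signals were 1342, 1265, 1116, 1134 and 1173 in CD151KO lungs, 937, 987, 1008, 626 and 869.7 in CD9KO lungs and 1389, 969, 1071 and 1059.99 in wild type lungs. Every CD151KO array was above every CD9KO array, by 1.37-fold on average (log2 0.46, SE 0.12, adjusted p = 0.0256, limma). The wild type arrays spread widely, with wild type 1 the highest of all 14, and overlapped both knockouts. CD9KO against wild type had a log2 of -0.34 and did not pass (adjusted p = 0.103, limma), nor did CD151KO against wild type, with an interval of -0.15 to 0.38. CD9KO 4 was the lowest array, at 626.

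A further probe set of Cxcl12 gave the same direction without overlap, at 602 ± 54.5 in CD151KO lungs and 510.1 ± 38.6 in CD9KO lungs (SD, n = 5 each), with a log2 of 0.23 and an adjusted p of 0.0359 by limma over all probe sets with 1 symbol. The remaining probe set was near the low end of the arrays, at 27.2 ± 2.05 and 27.2 ± 3.56 in the same groups, and showed no difference (log2 0.005). With the mean of all Cxcl12 probe sets the log2 was 0.23 (adjusted p = 0.011). The Cxcl12 call was lost without array CD151KO 1 (adjusted p = 0.0667), without CD151KO 2 (0.0574), without both (0.162) and without CD9KO 5 (0.0582). Markers of its usual sources did not all move with it. The summed signal of 9 fibroblast markers was 33217 to 36009 in CD151KO, 32652 to 37525 in CD9KO and 33382 to 34862 in wild type, and that of 9 blood endothelial markers 18976 to 22725 in CD151KO, 20264 to 21606 in CD9KO and 19540.1 to 23178 in wild type. Of the fibroblast markers, Col1a2 rose (log2 0.27, adjusted p = 0.0359) and Tcf21 fell (log2 -0.36, adjusted p = 0.0377) in CD151KO against CD9KO, and Pdgfra rose in CD9KO against wild type (log2 0.26, adjusted p = 0.0313). The Col1a2 call was lost without CD151KO 1, CD151KO 2, CD151KO 3, CD151KO 4, CD151KO 5, CD9KO 2, CD9KO 4 or CD9KO 5 (adjusted p 0.0534 to 0.0867) and without both CD151KO 1 and 2 (0.145). That of Tcf21 was lost without CD151KO 1, CD151KO 3, CD151KO 4, CD151KO 5, CD9KO 1, CD9KO 3 or CD9KO 5 (adjusted p 0.0667 to 0.0832) and with the replicate number as a block (0.0503). That of Pdgfra was lost without wild type 1, wild type 3, CD9KO 4 or CD9KO 5 (adjusted p 0.0682 to 0.0804), without both number 1 arrays of CD151KO and wild type (0.0718), with only the 2 groups compared (0.0534) and with the mean of its probe sets (log2 0.13, adjusted p = 0.0929). Of the endothelial markers, Car4 fell in CD151KO against CD9KO (log2 -0.21, adjusted p = 0.0129), the other 8 not passing. Their part in the Cxcl12 difference was not tested.

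The Cxcl12 promoter is shown because its probe sets carried the largest called difference among the ligands. RefSeq windows run from 250 bases before to 50 after a gene's start, on build GRCm38.p6, and 22.00 of the 32 ligand genes had one, 25.00 windows in all. Each was searched on both strands, overlapping matches included, for GGGNNNTTC (most of the NF-kB motif), TTCNNNGAA (STAT), GAAANNGAA (most of the interferon response motif, ISRE) and the TATA box, TATAAA. The NF-kB and ISRE patterns are each 1 letter shorter than those of an earlier search of the same windows, a change made with that result known, and they match more windows. Matches are printed in capitals. The Cxcl12 window, chr6:117168285-117168584 on the plus strand, held none of the 4 and had a G and C content of 64.7%.
Cxcl12: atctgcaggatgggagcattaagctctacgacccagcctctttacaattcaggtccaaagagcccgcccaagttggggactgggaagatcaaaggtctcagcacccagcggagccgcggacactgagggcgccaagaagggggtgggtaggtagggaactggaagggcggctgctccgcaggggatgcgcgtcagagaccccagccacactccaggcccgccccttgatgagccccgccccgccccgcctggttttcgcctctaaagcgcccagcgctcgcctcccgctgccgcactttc

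Cxcl13 is the B cell attractant of lymphoid follicles, acting on Cxcr5. Its signals were 243, 175, 251, 357 and 371 in CD151KO lungs, 216, 246, 336, 209 and 267 in CD9KO lungs and 264, 260.2, 367 and 287 in wild type lungs. They overlapped, with adjusted p-values of 0.508 or more. Its further probe set, averaging 286 ± 98.6 in CD151KO lungs and 270.4 ± 66.3 in wild type lungs, differed in sign for CD151KO against wild type (log2 0.04 against -0.11). Cxcl14 is a ligand of epithelium and stroma with antimicrobial activity. It had signals of 344, 323, 379.7, 364 and 314 in CD151KO lungs, 328, 256, 337, 323 and 328 in CD9KO lungs and 401, 431, 262 and 323 in wild type lungs. CD9KO 2 was the lowest of its group and wild type 3 the highest array of all. Its further probe set averaged 231 ± 23.7 in CD9KO lungs and 218 ± 12.6 in wild type lungs, and again differed in sign (log2 0.08 against -0.15). Cxcl17 is a mucosal ligand of airway epithelium. It had signals of 1377, 1396, 1719, 1565 and 1662 in CD151KO lungs, 1360.2, 1456, 1341, 1743 and 1325 in CD9KO lungs and 1556, 1431, 1515 and 1451 in wild type lungs, with overlap throughout and a smallest adjusted p of 0.438 (CD151KO against CD9KO).

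**Figure D3:**
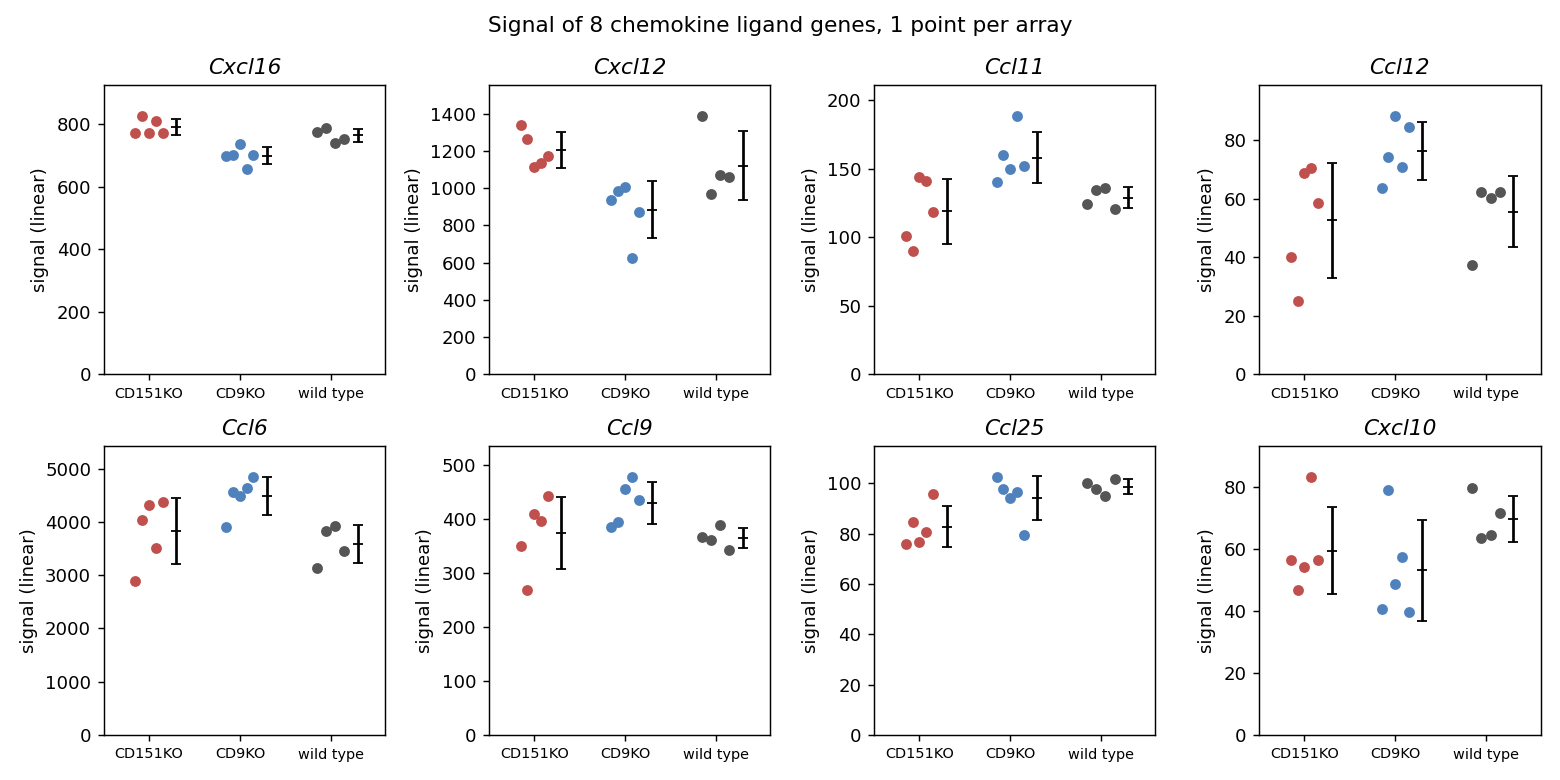
Signal of 8 ligands on each array (points), with the group mean and SD, for CD151KO, CD9KO and wild type lungs; each vertical axis is linear and starts at 0. Cxcl16 and Cxcl12 are higher on every CD151KO array than on any CD9KO array, and the CD151KO arrays of Ccl11 and Ccl12 spread more widely than those of the other groups.

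Ccl11 was the only ligand called lower in CD151KO than in CD9KO lungs. It is eotaxin-1, made by fibroblasts, smooth muscle and epithelium, and it recruits eosinophils through Ccr3. Its signals were 101, 89.8, 144, 141 and 118 in CD151KO lungs, 139.96, 159.9, 149.5, 188 and 152 in CD9KO lungs and 124, 134, 136 and 120.2 in wild type lungs. The CD9KO arrays all lay above the wild type arrays, and the CD151KO arrays split, with CD151KO 1 and 2 below all other arrays and CD151KO 3 and 4 above all wild type arrays. Ccl11 averaged 119 ± 23.9 in CD151KO lungs and 158 ± 18.5 in CD9KO lungs (SD, n = 5 each), 1.302-fold lower in CD151KO by limma (log2 -0.38, SE 0.10, adjusted p = 0.0337). In wild type lungs it averaged 129 ± 7.75 (SD, n = 4), and CD9KO against wild type did not pass (log2 0.26, SE 0.11, adjusted p = 0.156).

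The Ccl11 call depended on single arrays. It was lost in 10 of 27 alternative analyses, 6 of them by leaving out a single array, CD151KO 1, CD151KO 2, CD9KO 2, CD9KO 3, CD9KO 4 or CD9KO 5 (adjusted p 0.0522 to 0.0858). Without both CD151KO 1 and 2 the log2 was -0.21 (adjusted p = 0.215), which moves the difference by more than 1.5 times. Ccl24, eotaxin-2 of macrophages, which shares the receptor, had signals of 71.4, 75.1, 70.8, 66.8 and 71.6 in CD151KO lungs, 65.7, 68.9, 71.2, 61.2 and 73.5 in CD9KO lungs and 76.8, 64.6, 66.4 and 84.95 in wild type lungs. It overlapped in all comparisons, with adjusted p-values of 0.459 or more.

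Of the 4 ligands grouped under Ccr2 as monocyte-attracting, none passed in any comparison, and Ccl2 and Ccl7 were below the limit for low signal. Ccl12, a mouse monocyte chemoattractant next to Ccl11 on the chromosome in the RefSeq annotation, had signals of 39.9, 25.1, 68.7, 70.4 and 58.4 in CD151KO lungs, 63.7, 74.4, 88.2, 70.7 and 84.3 in CD9KO lungs and 37.2, 62.3, 60.3 and 62.3 in wild type lungs. All 5 CD9KO arrays were above all 4 wild type arrays, and CD151KO 1 and 2 were again the lowest of their group. The log2 difference was 0.38 for CD9KO against wild type (adjusted p = 0.221) and -0.48 for CD151KO against CD9KO (adjusted p = 0.0994), neither passing by limma. Wild type 1, at 37.2, lay far below the other wild type arrays. Ccl8, the other tested ligand of this group, had signals of 339.8, 309.8, 364, 604 and 377 in CD151KO lungs, 320.4, 378, 499.7, 369.6 and 358 in CD9KO lungs and 323, 312, 386 and 359 in wild type lungs. CD151KO 4 stood alone at the top, and the adjusted p-values were 0.593 or more.

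Ccl2, the main monocyte attractant of inflamed tissue, had signals of 42.6, 41.1, 49.7, 48.8 and 44.2 in CD151KO lungs, 47.2, 48.7, 45.1, 49.6 and 45.6 in CD9KO lungs and 40.9, 50.3, 46.1 and 47.4 in wild type lungs. Ccl7, which acts on the same receptor and on Ccr1 and Ccr3, had signals of 30.01, 32.8, 34.03, 38.96 and 32.9 in CD151KO lungs, 35.8, 38.5, 39.6, 30.5 and 41.01 in CD9KO lungs and 33.6, 37.1, 39.95 and 36.9 in wild type lungs. Both genes were low and overlapped in every pair of groups. The 10 monocyte and interstitial macrophage markers measured had summed signals of 7809.98 to 8966 in CD151KO, 7437 to 7861 in CD9KO and 7534 to 8656 in wild type. Of them, Cd163, a scavenger receptor of tissue macrophages, rose in CD9KO against wild type (log2 0.73, adjusted p = 0.0398) and fell in CD151KO against CD9KO (log2 -0.74, adjusted p = 0.0187). The first call was lost without wild type 1, wild type 3, wild type 4, CD151KO 3, CD9KO 1, CD9KO 3, CD9KO 4 or CD9KO 5 (adjusted p 0.0502 to 0.108) and without both number 1 arrays of CD151KO and wild type (0.0526), and the other without CD9KO 5 (adjusted p = 0.05) and without both CD151KO 1 and 2 (log2 -0.41, adjusted p = 0.0825). Its part in the ligand values was not tested.

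Ccl6 and Ccl9 are Ccr1 ligands, rodent chemokines of macrophages whose genes are neighbours in the RefSeq annotation with no coding gene between them. Ccl6 had signals of 2898, 4040.1, 4311, 3515 and 4373 in CD151KO lungs, 3909, 4558, 4479.99, 4638 and 4849.9 in CD9KO lungs and 3142, 3829.7, 3919 and 3455 in wild type lungs. CD9KO lungs averaged 4487 ± 351 (SD, n = 5), against 3586 ± 358 in wild type lungs (SD, n = 4), with 1 CD9KO array inside the wild type range. The difference did not pass by limma (log2 0.32, SE 0.11, adjusted p = 0.0778), and it passed without array CD151KO 1 (adjusted p = 0.0303), which changes only the pooled spread. A further Ccl6 probe set had no overlap between CD9KO and wild type (log2 0.43, adjusted p = 0.042, limma over all probe sets with 1 symbol). Its signals were 821, 1181, 1285, 987 and 1248 in CD151KO lungs, 1207, 1310.1, 1386, 1595 and 1490.04 in CD9KO lungs and 945, 1115, 1146 and 915 in wild type lungs.

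Ccl9 had signals of 351, 269.8, 410.2, 397 and 444 in CD151KO lungs, 385, 396, 456, 479 and 435 in CD9KO lungs and 367, 363, 389 and 343 in wild type lungs. CD9KO 1 fell inside the wild type range and the other 4 CD9KO arrays lay above it. The log2 difference for CD9KO against wild type was 0.22 (adjusted p = 0.213, limma), and 0.13 at the further Ccl9 probe set. The 10 alveolar macrophage markers measured had summed signals of 11321 to 17283 in CD151KO, 13049.9 to 15055 in CD9KO and 11512 to 14225 in wild type, and 0 of 10 passed in any comparison. Most of each such sum was 1 gene, Chil3, at 7219 to 11341 in CD151KO, 8477 to 9778 in CD9KO and 7222 to 9016 in wild type. Array CD151KO 2 had the highest such sum, 17283, beside the lowest Ccl9 of all arrays. For Ccl6, the array with the lowest such sum was the lowest of its group each time (CD151KO 1, CD9KO 1 and wild type 1). For Ccl9 that was so in CD9KO lungs only. The array with the highest sum was the highest for Ccl6 in CD9KO lungs only (CD9KO 5). The part of these cells in the Ccl6 and Ccl9 values was not tested.

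The windows before Ccl6 (chr11:83593038-83593337) and Ccl9 (chr11:83578587-83578886), both on the minus strand of GRCm38.p6, are shown because the genes are adjacent and their CD9KO means were both above wild type. Ccl6 held none of the 4 motifs, and Ccl9 held 1 NF-kB match and 3 TATA box matches, of which the closer pair overlap. The longest run shared by the pair was 13 bases, gccctccacttcc, present in 6 of 32851 RefSeq mouse windows.
Ccl6: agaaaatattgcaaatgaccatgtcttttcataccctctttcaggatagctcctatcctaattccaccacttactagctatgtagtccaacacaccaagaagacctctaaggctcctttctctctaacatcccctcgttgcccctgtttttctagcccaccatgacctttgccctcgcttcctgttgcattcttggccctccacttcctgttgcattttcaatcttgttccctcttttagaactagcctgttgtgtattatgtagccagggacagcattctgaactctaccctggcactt
Ccl9: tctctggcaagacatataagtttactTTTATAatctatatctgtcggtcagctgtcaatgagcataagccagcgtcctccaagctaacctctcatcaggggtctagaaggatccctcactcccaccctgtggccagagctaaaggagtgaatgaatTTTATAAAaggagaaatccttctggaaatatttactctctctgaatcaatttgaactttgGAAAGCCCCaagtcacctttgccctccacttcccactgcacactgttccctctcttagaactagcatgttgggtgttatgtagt

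Ccl5, or RANTES, is stored and released by T and NK cells and binds Ccr1 and Ccr3. Its signals were 955, 729.9, 1099.8, 686 and 737 in CD151KO lungs, 757, 1288, 582, 424 and 719.8 in CD9KO lungs and 995, 776, 782 and 897 in wild type lungs. CD9KO lungs held both the highest array, CD9KO 2, and the lowest, CD9KO 4, and no comparison passed (adjusted p-values of 0.464 or more). The 13 T and NK cell markers measured were also summed highest on CD9KO 2 (3186) and lowest on CD9KO 4 (1792) within that group. The array with the highest sum was the one with the highest Ccl5 in CD151KO lungs (CD151KO 3) and in wild type lungs (wild type 1) as well. At the low end these groups did not match. The lowest sums of those groups were on CD151KO 2 and wild type 4, and the lowest Ccl5 on CD151KO 4 and wild type 3. Over the groups the sums ran 2184 to 3658 in CD151KO, 1792 to 3186 in CD9KO and 2421 to 2898 in wild type, and 0 of 13 markers passed in any comparison. Their part in the Ccl5 spread was not tested.

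Ccl4, a product of activated macrophages and lymphocytes, had signals of 91.6, 82.3, 89.01, 83.1 and 69.1 in CD151KO lungs, 70.6, 82.4, 80.5, 67.6 and 75.4 in CD9KO lungs and 80.7, 77.1, 82.5 and 88.2 in wild type lungs, overlapping in every pair of groups (smallest adjusted p 0.266). Ccl3, its relative, was below the limit, with signals between 29.01 and 34.8 in CD151KO, 27.1 and 39.3 in CD9KO and 29.03 and 37.8 in wild type lungs.

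The interferon-induced Cxcr3 ligands, which recruit activated T and NK cells, were low in all groups, and neither of the 2 tested passed. Cxcl10 had signals of 56.4, 46.7, 53.99, 83.2 and 56.5 in CD151KO lungs, 40.5, 79.03, 48.6, 57.4 and 39.7 in CD9KO lungs and 79.5, 63.4, 64.6 and 71.4 in wild type lungs. All CD9KO arrays but CD9KO 2 were below every wild type array, and CD9KO 2 was above the others of its group. The log2 difference was -0.34 for CD9KO against wild type (adjusted p = 0.17, limma). Without CD9KO 2 it was -0.46 and passed (adjusted p = 0.0499).

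Cxcl9 had signals of 59.8, 64.6, 54.95, 155 and 75.8 in CD151KO lungs, 51.8, 91.9, 64.9, 52.1 and 48.6 in CD9KO lungs and 88.6, 65.6, 89.2 and 70.00 in wild type lungs. CD151KO 4 was the highest array, and CD9KO 2 the highest of the CD9KO group. The adjusted p-values were 0.404 or more, and a further, dim probe set of Cxcl9, averaging 12.2 ± 1.47 in CD9KO lungs and 11.7 ± 0.559 in wild type lungs, had a log2 of 0.02 against -0.30 for CD9KO against wild type. Cxcl11, which RefSeq lists as a transcribed pseudogene in this reference strain, was below the limit, with signals of 26.7, 26.4, 22.3, 26.2 and 25.02 in CD151KO lungs, 25.05, 25.9, 26.5, 23.96 and 26.04 in CD9KO lungs and 28.1, 24.3, 27.3 and 30.8 in wild type lungs.

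The interferon gamma response list gives the context of these ligands. Of 13 genes, 12 were measured and 10 tested, and 0 passed in any comparison, with 0 at an unadjusted p under 0.05 for CD9KO against wild type by limma. Array CD9KO 2 stood out, with a summed signal of 18376, against 5933 to 7475 on the other CD9KO arrays. The sums were 6235 to 7998 on CD151KO arrays and 6984 to 9539.8 on wild type arrays. CD9KO 2 was also the highest CD9KO array for Ccl5, Cxcl9 and Cxcl10. CD151KO 4, the highest array for Cxcl9 and Cxcl10, had an interferon sum of 6718. Leaving out CD9KO 2 changed no call of Cxcl9 or Ccl5.

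**Figure D4:**
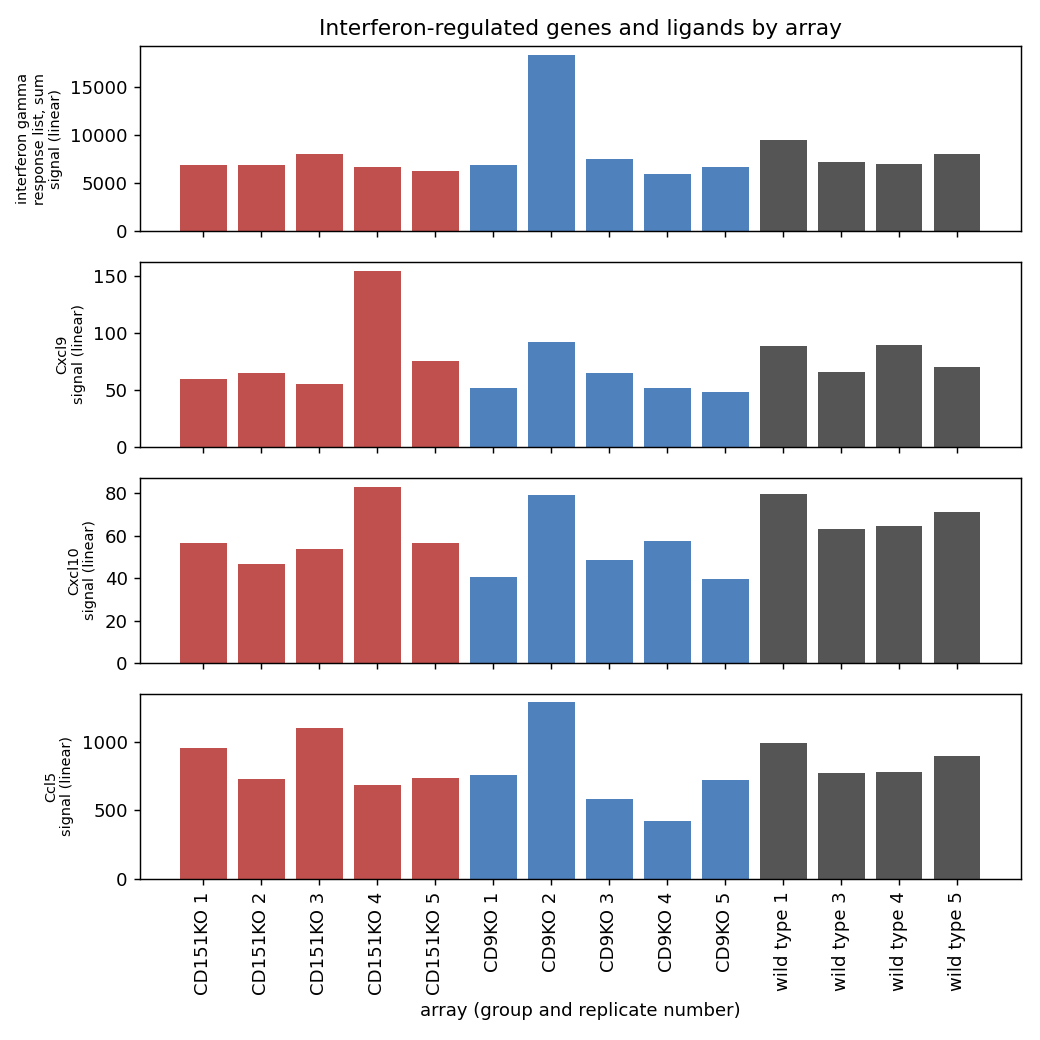
Summed signal of the interferon gamma response genes on each array, beside Cxcl9, Cxcl10 and Ccl5 on the same arrays, in the order CD151KO, CD9KO, wild type; all axes are linear in signal. The CD9KO 2 array reaches 18376 in the sum, above every other array, and is the highest CD9KO array for the 3 ligands.

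The promoters of Cxcl9 (chr5:92328030-92328329) and Cxcl10 (chr5:92348840-92349139), both on the minus strand of GRCm38.p6, are shown for the motifs named above. The Cxcl10 window held an ISRE match, GAAAGTGAA, -213 bases from the start, and a pair of NF-kB matches, GGGAAATTC and GGGGACTTC. The Cxcl9 window held 1 match each of ISRE, NF-kB and TATAAA. Over all RefSeq mouse windows of this length, 8.56% held the ISRE pattern and 14% the NF-kB pattern. Among the ligand windows, 5 of 25 held ISRE and 10 of 25 NF-kB. STAT was in 2 of 25 (all windows 8.3%) and TATAAA in 8 of 25 (all windows 13.6%). A match describes the letters only.
Cxcl9: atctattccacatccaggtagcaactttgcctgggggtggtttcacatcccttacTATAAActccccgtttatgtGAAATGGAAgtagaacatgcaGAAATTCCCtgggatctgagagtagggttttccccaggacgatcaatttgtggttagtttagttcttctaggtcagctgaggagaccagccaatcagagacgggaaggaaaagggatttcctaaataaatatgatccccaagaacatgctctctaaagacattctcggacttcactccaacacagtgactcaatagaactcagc
Cxcl10: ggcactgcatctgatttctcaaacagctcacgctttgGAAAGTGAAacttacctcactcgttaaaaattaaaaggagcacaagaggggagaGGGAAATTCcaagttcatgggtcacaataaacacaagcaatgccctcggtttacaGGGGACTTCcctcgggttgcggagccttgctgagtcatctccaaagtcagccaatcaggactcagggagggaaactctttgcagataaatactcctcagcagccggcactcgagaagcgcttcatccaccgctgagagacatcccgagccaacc

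Of the 4 neutrophil-attracting ligands, 3 were below the limit for low signal, and Cxcl1, the 1 tested, did not pass in any comparison. Cxcl1, the mouse ligand of Cxcr2 made by epithelium and macrophages, had signals of 155, 168, 147, 162 and 146 in CD151KO lungs, 163, 178, 177, 164 and 171 in CD9KO lungs and 176, 172, 151 and 163 in wild type lungs. Its CD151KO arrays were mostly below the CD9KO arrays, but the ranges overlapped, and the log2 difference of -0.12 did not pass (adjusted p = 0.125, limma). A further Cxcl1 probe set averaged 134 ± 14.5 in CD151KO and 148 ± 4.06 in CD9KO lungs (log2 -0.13). The remaining Cxcl1 probe set was below the limit for low signal in the same groups, at 45.7 ± 11 and 54.1 ± 5.01 (log2 -0.20). Cxcl2, Cxcl3 and Cxcl5, which act on the same receptor, were the 3 below the limit. Cxcl2 had signals of 17.3, 17.4, 15.4, 14.4 and 12.7 in CD151KO lungs, 14.7, 13.3, 13.1, 17.5 and 13.6 in CD9KO lungs and 19.2, 13.9, 12.3 and 14.4 in wild type lungs. Cxcl5, a product of alveolar epithelium in injured lung, had signals of 9.69, 23.3, 10.6, 10.99 and 12.7 in CD151KO lungs, 8.81, 12.8, 11.1, 11.2 and 9.78 in CD9KO lungs and 9.73, 11.4, 11.5 and 10.3 in wild type lungs. Array CD151KO 2 was the highest for Cxcl5. Cxcl3 had signals of 8.84, 13.98, 8.71, 8.52 and 11.02 in CD151KO lungs, 7.88, 8.53, 9.80, 8.62 and 10.9 in CD9KO lungs and 8.21, 8.73, 8.25 and 8.40 in wild type lungs. All 3 lie where the arrays cannot separate a low level from background.

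Of the 9 neutrophil markers measured, 6 were tested, and 4 of 6 rose in CD151KO against CD9KO lungs, S100a8 (log2 1.61, adjusted p = 0.00926), S100a9 (log2 1.78, adjusted p = 0.00813), Csf3r (log2 0.71, adjusted p = 0.029) and Cxcr2. None of the 6 passed against wild type in either knockout by limma, with 3 at an unadjusted p under 0.05 for CD151KO and 2 for CD9KO. The shares passing over all genes were 0.778% for CD151KO against wild type, 5.51% for CD9KO against wild type and 10.1% for CD151KO against CD9KO. At that unadjusted p they were 11.1% for CD151KO and 25.4% for CD9KO against wild type. Cxcr2 is at once a neutrophil marker and the receptor of Cxcl1. Its signals were 129, 158, 113, 79.6 and 99.2 in CD151KO lungs, 65.4, 61.8, 71.96, 62.4 and 47.99 in CD9KO lungs and 110.4, 79.9, 75.4 and 82.9 in wild type lungs, so that every CD151KO array was above every CD9KO array (log2 0.74, SE 0.14, adjusted p = 0.0058, limma). The CD9KO arrays were also below every wild type array, and that difference did not pass (log2 -0.40, adjusted p = 0.102), though it did without CD151KO 1 and 2 (adjusted p = 0.0486). The Csf3r call was lost without CD151KO 1, CD151KO 2, CD9KO 3, CD9KO 4 or CD9KO 5 (adjusted p 0.0529 to 0.072) and without both CD151KO 1 and 2 (log2 0.37, adjusted p = 0.168). Leaving out that pair moved S100a8 and S100a9 by more than 1.5 times, to a log2 of 1.02 (adjusted p = 0.0452) and 1.16 (adjusted p = 0.0427). Cxcr2 kept its call in 27 of 27 alternative analyses, with an adjusted p of 0.037 without the CD151KO 1 and 2 arrays.

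Ccl17 and Ccl22, dendritic cell products that draw Ccr4-bearing T cells, did not pass in any comparison. Ccl17 had signals of 199.8, 164, 326, 328 and 298 in CD151KO lungs, 216, 296, 346, 452 and 265 in CD9KO lungs and 209.5, 248, 301.4 and 281 in wild type lungs. Its arrays spread widely within each group, with CD151KO 1 and 2 low and CD9KO 4 highest. CD151KO against CD9KO had a log2 of -0.25 (adjusted p = 0.437), which without CD151KO 1 and 2 was 0.05, the opposite sign. Ccl22 had signals of 89.6, 64.9, 85.2, 91.4 and 75.8 in CD151KO lungs, 75.5, 81.7, 116, 105 and 74.5 in CD9KO lungs and 79.5, 88.6, 78.8 and 87.02 in wild type lungs, with the groups overlapping (smallest adjusted p 0.494). Ccl1, the Ccr8 ligand of activated T cells, was below the limit, with signals of 25.8, 20.9, 29.4, 27.02 and 27.6 in CD151KO lungs, 26.7, 26.1, 24.2, 25.2 and 27.8 in CD9KO lungs and 27.6, 26.5, 26.3 and 31.2 in wild type lungs. The 8 dendritic cell markers measured had summed signals of 1347 to 1866 in CD151KO, 1569.9 to 1799 in CD9KO and 1536 to 1824 in wild type, lowest on CD151KO 2, and 0 of the 7 tested passed. Their part in the Ccl17 values was not tested.

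The mucosal CC ligands held the only member ligand with an unadjusted p under 0.05 for CD151KO against wild type, Ccl25. Ccl25 is known from thymus and gut, where it draws Ccr9-bearing T cells. Its signals were 75.96, 84.6, 76.8, 80.6 and 95.8 in CD151KO lungs, 103, 97.9, 94.4, 96.4 and 79.4 in CD9KO lungs and 100.3, 97.7, 94.95 and 102 in wild type lungs. All CD151KO arrays except CD151KO 5 were below the wild type arrays, and the log2 difference of -0.22 (unadjusted p = 0.00536, adjusted p = 0.192, limma) did not pass. CD151KO against CD9KO did not pass either (log2 -0.16, adjusted p = 0.122), though it did without CD151KO 5 (adjusted p = 0.0431) or without CD9KO 5 (adjusted p = 0.0484). Its further probe set differed in sign for CD151KO against wild type, with signals of 59.9 ± 1.16 in CD151KO lungs and 58.5 ± 3.15 in wild type lungs and a log2 of 0.03.

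Ccl20, which acts on Ccr6 and is made by inflamed epithelium, had signals of 124, 131, 122, 139 and 128 in CD151KO lungs, 101, 138, 125, 108 and 133 in CD9KO lungs and 112, 124, 199 and 113 in wild type lungs. Wild type 4 alone was high, and the adjusted p-values were 0.541 or more. Ccl27a, a ligand of Ccr10 known best from skin, had signals of 155, 177, 154, 166 and 173 in CD151KO lungs, 157, 173, 171, 176 and 176 in CD9KO lungs and 141, 149, 168 and 155 in wild type lungs. The groups overlapped, and CD9KO against wild type had a log2 of 0.14 (adjusted p = 0.127, limma). Ccl28, which shares that receptor and marks mucosal epithelium, was just below the limit, with signals of 56.1, 55.7, 54.1, 36.9 and 50.6 in CD151KO lungs, 52.7, 55.4, 52.3, 55.6 and 52.6 in CD9KO lungs and 66.9, 49.9, 52.6 and 47.7 in wild type lungs. Its probe sets differed in sign: the chosen one had a log2 of -0.08 for CD151KO against wild type and another, averaging 8.05 ± 0.253 in CD151KO lungs and 7.27 ± 0.627 in wild type lungs, had a log2 of 0.05.

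Several ligands shared which arrays were low. Among the tested ligands, arrays CD151KO 1 and 2 were the lowest of the CD151KO group for Ccl8, Ccl9, Ccl11, Ccl12, Ccl17, Cxcl13 and Cxcl17. They were the highest of that group for Cxcl12 and Cx3cl1, and the remaining tested ligands showed neither pattern. The same arrays had the highest neutrophil marker sums of all 14. With both left out, a setting picked once the values were known, 0 of the ligands were called for CD151KO against CD9KO, where all genes gave 360 calls rather than 1313. Leaving out either one alone left 1 ligand called. The part of neutrophils in the ligand values was not tested.

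Of 19 receptors listed, 17 were measured and 12 tested. In CD151KO against wild type, CD9KO against wild type and CD151KO against CD9KO, 0, 0 and 1 of 12 passed, the 1 being Cxcr2. Over all genes 0.778%, 5.51% and 10.1% passed in the same order. Ccr1, a receptor of Ccl5, Ccl6 and Ccl9 on myeloid cells, had signals of 195, 165, 206, 193 and 196 in CD151KO lungs, 144, 179, 182, 218 and 188 in CD9KO lungs and 113, 152, 162 and 149 in wild type lungs. Every CD151KO array was above every wild type array, yet the difference did not pass (log2 0.38, SE 0.10, adjusted p = 0.132, limma), nor did that of CD9KO against wild type (log2 0.31, adjusted p = 0.0836), which passed without CD9KO 1 (adjusted p = 0.0376). Cxcr5, the Cxcl13 receptor of B cells, had signals of 134, 50.1, 96.6, 54.7 and 59.9 in CD151KO lungs, 61.4, 45.2, 52.8, 46.7 and 66.9 in CD9KO lungs and 126, 77.6, 69.6 and 63.9 in wild type lungs and did not pass either (CD9KO against wild type, log2 -0.48, adjusted p = 0.192).

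Among the 5 atypical and scavenging receptors, Ackr2 rose in CD9KO lungs. Ackr2 takes up and degrades inflammatory CC chemokines, Ccl2, Ccl5 and Ccl11 among them, and in lung is known from lymphatic endothelium. Its signals were 599, 725, 768, 828 and 789 in CD151KO lungs, 1049, 954, 1121, 1172 and 1095 in CD9KO lungs and 594, 751, 751 and 891 in wild type lungs. Every CD9KO array was above every other array, 1.45-fold above wild type lungs on average (log2 0.53, SE 0.10, adjusted p = 0.0161) and with CD151KO against CD9KO at a log2 of -0.53 (adjusted p = 0.00537, limma). Both calls held in 28 of 28 alternative analyses, and with the mean of its probe sets the difference of CD151KO against CD9KO was smaller, at a log2 of -0.33. The 7 lymphatic endothelial markers had summed signals of 8810.4 to 12215 in CD151KO, 12736 to 15112 in CD9KO and 10429 to 11271 in wild type, so the CD9KO sums did not overlap the others. The brightest of the 7 was Lyve1, a hyaluronan receptor also found on some macrophages, at 4140.5 to 7872 in CD151KO, 7659.8 to 10320.4 in CD9KO and 4907 to 6561 in wild type. Without Lyve1, left out after its values were seen, the other 6 markers gave sums that overlapped between the groups. These were 4144 to 5228 in CD151KO, 4614 to 5076 in CD9KO and 4613 to 5522 in wild type. Most of each such sum was Pdpn, at 3038 to 3824 in CD151KO, 3467 to 3863 in CD9KO and 3584 to 4417 in wild type. Mmrn1, like Lyve1, was higher on every CD9KO array than on any wild type array (331 to 387 against 252 to 329). Its CD151KO arrays, at 282 to 406, overlapped both groups. For CD9KO against wild type, 4 of the 5 tested had a log2 above 0 and 1 below. None of the 5 lymphatic markers tested passed (Lyve1 in CD9KO against wild type, log2 0.53, adjusted p = 0.0504, limma), and Prox1, the defining factor of these cells, had signals of only 11.05 to 20.03. Their part in the Ackr2 difference was not tested.

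The other atypical receptors did not pass. Ackr4, which clears Ccl19, Ccl21 and Ccl25, had a log2 of -0.38 for CD9KO against wild type (adjusted p = 0.134), and Ccrl2, which presents chemerin, of 0.14 for CD151KO against wild type (adjusted p = 0.302), by limma. For CD151KO, CD9KO and wild type lungs, Ackr4 averaged 91.5 ± 21.9, 80.9 ± 10.1 and 112 ± 31.4, and Ccrl2 502 ± 29.3, 457 ± 32.3 and 452 ± 12.6 (SD, n = 5, 5 and 4).

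**Figure D5:**
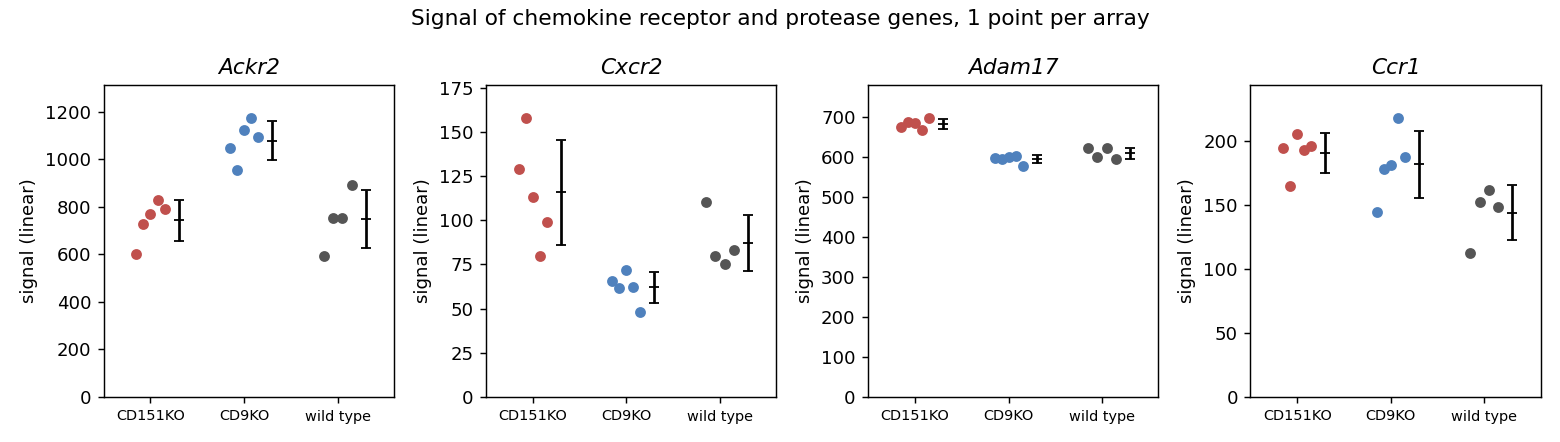
Signal on each array (points), with group mean and SD, of Ackr2, Cxcr2, Adam17 and Ccr1, genes that bind, clear or cut chemokines, for CD151KO, CD9KO and wild type lungs; each vertical axis is linear and starts at 0. Ackr2 is higher on every CD9KO array than on any other array, and Cxcr2 and Adam17 are higher on every CD151KO array than on any CD9KO array.

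Of the 3 chemokine-processing proteases, Adam17 rose and Adam10 and Dpp4 did not pass. Adam17 sheds Cx3cl1 and, with Adam10, Cxcl16 from the cell surface. Its signals were 675, 688, 685, 666 and 696 in CD151KO lungs, 597, 595, 599.97, 603 and 576 in CD9KO lungs and 621, 599.7, 621 and 594 in wild type lungs. The CD151KO arrays were above all others, with a log2 of 0.19 against CD9KO lungs (adjusted p = 0.00197) and 0.16 against wild type lungs (adjusted p = 0.0301), by limma. The call against CD9KO held in all 28 alternative analyses, and that against wild type was lost in 13 of them. The weakest was with the mean of its probe sets (log2 0.12, adjusted p = 0.229). The replicate number as a block gave an adjusted p of 0.0821. The call against wild type was also lost without wild type 3, wild type 4, wild type 5, CD151KO 1, CD151KO 2, CD151KO 3, CD151KO 4 or CD151KO 5 (adjusted p 0.0501 to 0.103). RNA of a protease says nothing of the cut ligand, which the arrays do not measure.

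Cxcl15, or lungkine, is a lung epithelial CXC ligand that sits outside the member rule. It had signals of 16037, 16046, 16314, 15704 and 16348 in CD151KO lungs, 12499, 12896, 13076, 13192 and 12455 in CD9KO lungs and 13116, 15208, 12884 and 12300.2 in wild type lungs. The CD151KO arrays were above all others, by a log2 of 0.27 against wild type (adjusted p = 0.0162) and 0.33 against CD9KO lungs (adjusted p = 0.00104), by limma. The call against wild type was lost in 3 of 28 alternative analyses, namely without wild type 4 (adjusted p = 0.0627), without both number 1 arrays of these groups (0.0591) and with only the 2 groups compared in the fit (0.0718). The platelet ligands Pf4 and Ppbp, CXC chemokines with names of their own, did not pass in any comparison.

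Inducers and partners of the inflammatory ligands passed in CD151KO against CD9KO only. Of 16 inflammatory cytokines and NF-kB targets, 15 were measured and 13 tested. Of these, 0 passed for CD151KO against wild type, 0 for CD9KO against wild type and 2 for CD151KO against CD9KO. Over all genes 0.778%, 5.51% and 10.1% passed in the same order. Il1b, which induces neutrophil ligands, was higher in CD151KO than in CD9KO lungs (log2 1.14, SE 0.31, adjusted p = 0.0308, limma). Its log2 for CD9KO against wild type was -0.71, which did not pass, and its CD151KO and wild type ranges overlapped. The Il1b signals were 639, 473, 235, 171 and 204 in CD151KO lungs, 116, 132, 114, 126 and 159.8 in CD9KO lungs and 394, 213, 182 and 155 in wild type lungs. Its groups did not overlap between the knockouts, and the call was lost without CD151KO 1, CD151KO 2, CD9KO 1, CD9KO 3, CD9KO 4 or CD9KO 5 (adjusted p 0.0508 to 0.0759). Without both CD151KO 1 and 2 the log2 was 0.59 (adjusted p = 0.167). Nfkbia, the NF-kB inhibitor that NF-kB itself induces, fell in CD151KO against CD9KO (log2 -0.18, adjusted p = 0.01), a call lost without both CD151KO 1 and 2 (adjusted p = 0.0764). By limma, 0 of 13 and 4 of 13 had an unadjusted p under 0.05 in CD151KO and CD9KO against wild type. Over all genes these shares were 11.1% and 25.4%.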

How the data were processed

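The 14 arrays, 5 from CD151KO, 5 from CD9KO and 4 from wild type lungs, were grouped by sample title. The deposited values are linear intensities, 1 per probe set and array, and normalized per the labels. Affymetrix Expression Console and MAS5 are named in the submitters' processing notes, with the summary method not given in the sources used here. Array medians ran from 83.9 to 85.9. Whether the samples are separate animals is not given, so p-values measure the spread between samples, which may be technical.

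Symbols came from GEO's platform annotation, which can be old, and 34741 of 34945 probe sets with 1 symbol were matched to RefSeq by Entrez ID. The probe set with the highest mean stood for a gene, and genes under the 40th percentile of mean log2 were left out, which kept 12985. Log2(signal + 16) was fitted with limma 3.58.1 in R 4.3.3 (lmFit, eBayes with trend) over all 14 arrays, with 11 residual degrees of freedom and Benjamini-Hochberg adjustment over all genes. The code was tested on simulated data. Replicate numbers were checked for pairing. Same-numbered arrays of different groups had correlations of their deviations from -0.13 to 0.59, not all above 0.1 in any comparison, so they were not treated as pairs.

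The members and gene lists were chosen with earlier results of these data known. Ligands past the threshold, those without overlap and up to 4 of each ligand list by smallest p were given in full, with related genes that passed or, failing that, up to 2 of a list. Alternatives are described in the closing section. The number of samples limits the precision.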

Additional observations from a re-analysis of the deposited data

Results flagged for a closer look

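In groups of 4 or 5 arrays, 1 array was set against the others by Dixon's 95% limit, on the log2(signal + 16) scale, for all 32 ligands and the 55 measured genes of the receptor, protease, other CXC ligand, cytokine and interferon lists, tested or not. Of 261 groups checked, 24 had such an array, where chance alone gives about 1 in 20 if the checks are independent. They were not, since many of the flags were interferon gamma response genes on the same array, CD9KO 2, as given below. The ligands had 7, in 96 groups checked, and the related genes had 17. Ccl8 was high on CD151KO 4, at 604, with the next CD151KO array at 377. Ccl27a was low on CD9KO 1, at 157, with the next CD9KO array at 171. Cxcl14 was low on CD9KO 2, at 256, against 323 on the next. Ccl12 was low on wild type 1, at 37.2, against 60.3 on the next. The other 3 were ligands below the limit for low signal. Cxcl5 was high on CD151KO 2, at 23.3 against 12.7 on the next, Ccl3 high on CD9KO 2, at 39.3 against 28.9, and Ccl28 low on CD151KO 4, at 36.9 against 50.6.

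Array CD9KO 2 was high for 10 genes of the interferon gamma response list, namely Gbp3 (1517, next 673), Igtp (3791, next 1017), Iigp1 (3445, next 1028), Irgm1 (1312, next 572), Tap1 (709, next 312), Psmb9 (1217, next 684), Ciita (252, next 114), Cd274 (502, next 227), Ifng (40.5, next 15.2) and Ido1 (111, next 43.5). Ifng and Ido1 are below the limit for low signal. The same array was low for the receptor Ccr7, at 109.8 against 150.4 on the next CD9KO array. Igtp was also high on CD151KO 3, at 1086 against 836 on the next.

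Array CD151KO 2 was low for the receptors Ccr1 (165, next 193) and Cxcr6 (91.8, next 127) and for the NF-kB target Birc3 (898, next 1058). The receptor gene Ccr1l1, below the limit, was high on CD9KO 5, at 27.4 against 20.2 on the next. Tnfaip3, another NF-kB target, was high on CD151KO 1, at 517 against 432 on the next. No cause was tested for any of these values.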

How the results depend on the processing

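The alternatives were 27 in all. They were pseudocounts of 1 and 64, no filter or a 60th percentile filter, and every probe set or the mean of a gene's probe sets. The fit was also run on only the groups compared, with array weights, with no mean-variance trend and with a replicate block. Further ones were quantile normalization or arrays centred on their median, leaving out wild type 1 with CD151KO 1, and leaving out each array. Ccl11 and Cxcr2 fall under the 60th percentile filter and have 1 fewer. Ccl4, Ccl12, Ccl20, Ccl22, Ccl24, Ccl25, Cxcl10, Xcl1, Cxcr5 and Ackr4 also have 1 fewer, and Cxcl9 has fewer still. Leaving out CD151KO 1 and 2 was added after seeing the data. For CD151KO against wild type, 0 ligands were called in all 28 (smallest adjusted p for Ccl25 0.0919). For CD9KO against wild type, 1 ligand rather than 0 was called with every probe set (1 probe set of Ccl6), with only the 2 groups compared and without CD151KO 1 and 2, and 0 to 1 when a single array was left out. For CD151KO against CD9KO, the 3 calls became 0 without CD151KO 1 and 2 and 1 to 4 without a single array. The cause was not tested. With the replicate number as a block, 5 ligands were called for CD9KO against wild type and 5 for CD151KO against CD9KO. The deviations of same-numbered arrays correlated at -0.13 to 0.592 (13 pairs, median 0.096). Between wild type and CD151KO they did so at 0.592, 0.451 and 0.263 for numbers 1, 4 and 5 and at -0.13 for number 3. Since not every pair was above 0.1 in any comparison, the numbers were not taken as pairs.

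Calls over all genes for CD151KO against wild type were 101, against 335 with array weights, 39 with only those groups, 45 without both number 1 arrays and 24 to 98 without a single array. For CD9KO against wild type they were 715, against 1318 with every probe set, 1090 with array weights, 1591 with the replicate block, 405 without wild type 1 and CD151KO 1 and 158 to 866 without a single array. For CD151KO against CD9KO they were 1313, against 360 without CD151KO 1 and 2 and 682 to 1939 without a single array. Signs turned for Ccl17 (CD151KO against CD9KO, 0.0499 without CD151KO 1 and 2), Ccl20 (CD9KO against wild type, -0.2055 to 0.0453 without a single array, the highest without wild type 4) and Ackr4 (CD9KO against wild type, 0.0015 with the mean of its probe sets), none of them called. Signals near the low end of the arrays limit what can be said of the 9 untested ligands.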

Other observations

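Some chemokine probe sets carry several symbols and so belong to no single gene. The Ccl21 probe set, which covers the near-identical copies of this lymphatic and lymph node ligand of Ccr7, had signals of 2654, 3595, 2710.1, 2603 and 2912 in CD151KO lungs, 2311, 2151, 2285, 2197 and 1919 in CD9KO lungs and 3010.4, 2488, 2287 and 2186 in wild type lungs. Every CD151KO array was above every CD9KO array, and both overlapped wild type lungs. The means were 2895 ± 409 in CD151KO and 2172 ± 156 in CD9KO lungs (SD, n = 5 each), against 2493 ± 367 in wild type lungs (SD, n = 4). No test was made, since the fit held genes with 1 symbol. The probe set shared by Ccl19 and its copies averaged 149 ± 14.3 in CD151KO, 145 ± 12.5 in CD9KO and 152 ± 16.4 in wild type lungs. A pair of probe sets shared by Ccl27a and Ccl27b averaged 240.1 ± 12.9, 232 ± 11.6 and 248 ± 15.2 for the brighter and 163 ± 11.7, 162 ± 5.37 and 165 ± 10.98 for the dimmer, in the same order of groups.

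Further cell type markers were measured in the lungs. For B and plasma cells the 10 markers measured had summed signals of 8632 to 14096 in CD151KO, 5182 to 11589.7 in CD9KO and 4908 to 13567 in wild type, for platelets the 5 measured 617 to 859.97 in CD151KO, 570.4 to 924 in CD9KO and 665 to 810.3 in wild type, for mesothelium 5 2267 to 2562 in CD151KO, 1171 to 2516 in CD9KO and 1707 to 2168 in wild type and for thymus and lymphoid tissue 6 214 to 405 in CD151KO, 207 to 292 in CD9KO and 238 to 299 in wild type. None of these markers passed in any comparison. Epithelial markers passed in CD151KO against CD9KO only, 1 in each of the 3 lists. Of the 7 alveolar type 2 markers, Abca3, a surfactant lipid transporter, rose (log2 0.36, adjusted p = 0.0041, limma), with sums of 84363 to 88848 in CD151KO, 82534 to 86285 in CD9KO and 82869.8 to 87400.4 in wild type. Of the 6 alveolar type 1 markers, Clic5 fell (log2 -0.13, adjusted p = 0.0303), with sums of 49405 to 54391 in CD151KO, 51807 to 54169 in CD9KO and 52120.00 to 54028 in wild type, a call lost without CD151KO 1, CD151KO 3, CD151KO 5, CD9KO 3 or CD9KO 4 (adjusted p 0.0554 to 0.0727) and with the mean of its probe sets (log2 -0.06, adjusted p = 0.276). Of the 7 club and airway markers, Scgb3a1, a secretoglobin, rose (log2 0.70, adjusted p = 0.0277), with sums of 76835 to 80103 in CD151KO, 69998 to 75873 in CD9KO and 74654 to 75396 in wild type, a call lost without CD151KO 1, CD151KO 2, CD151KO 4 or CD9KO 4 (adjusted p 0.0517 to 0.0661) and without both CD151KO 1 and 2 (0.126).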
